A study of Homo sapiens with 6 samples.

Results

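The epidermal growth factor receptor (EGFR) family, or ERBB family, was described here across the 2 groups of the study as 10 genes: the receptors EGFR, ERBB2 and ERBB3, and the ligands HBEGF, AREG, EREG, TGFA, BTC, EPGN and NRG1. The members were matched by gene symbol to rows of the deposited gene table, which lists 74852 genes, and each matched 1 row. The minimum for testing was a mean over all libraries of 10 normalized counts, which was reached by 7 of the 10 members and by 18717 genes in all. The 3 members below it were EPGN, EREG and BTC. 

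MDA-MB-231 is an established human line of triple-negative breast cancer (TNBC). PolyA-enriched RNA of these cells was sequenced with and without silencing of the mitotic kinase NEK2, to learn which transcripts respond to it. The si-CTRL group (3 libraries) received a pool of non-targeting siRNAs and the si-NEK2 group (3 libraries) a pool of siRNAs against NEK2. Per the sample records, both groups went through 2 rounds of lipid transfection in the same serum-containing medium, and cells were collected 24 h after the later round. The methods of the paper give another harvest time after transfection and name no second round. The design holds 1 cell line, 1 siRNA pool per group and 1 time point, so responses to single siRNAs or over time were not measured. The labels do not say that the libraries of a group came from separate cultures, so p-values measure the spread between these libraries, which may be technical.

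Receptors of the EGFR family are transmembrane tyrosine kinases that signal as pairs. EGFR binds EGF, TGFA, AREG and EPGN, which act on it alone, and HBEGF, BTC and EREG, which also bind ERBB4. NRG1 binds ERBB3 and ERBB4, ERBB2 has no known ligand of its own and serves as a partner, and ERBB3 has a weak kinase and depends on its partner. The ligands are made as membrane-anchored precursors that ADAM proteases cut free, and active receptors feed the RAS-ERK and PI3K pathways. In TNBC, tumour cells make neither hormone receptor and do not carry extra copies of ERBB2, while EGFR is often abundant.

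The genes of 4 ligands lie next to each other on chromosome 4, in the order EPGN, EREG, AREG and BTC, within a span of 545.71 kb that holds 5 rows of the table (hg19). The gaps between neighbours were 48339 bases from EPGN to EREG, 56337 bases from EREG to AREG and 349244 bases from AREG to BTC. The 100 bases before the start of each of these 4 genes and of HBEGF are shown. HBEGF was the member with the largest fitted change among the 7 tested. This choice sets the 3 neighbours that hold an exact TATAAA beside a ligand gene rich in GC boxes. The sequences are RefSeq promoters of build GRCh38.p14, read on the strand of the gene from 5′ to 3′ and ending at the base before the start. Capitals mark exact matches, on either strand, to TATAAA, to GGGCGG (the GC box, CCGCCC on the other strand) or to TGACGTCA (the cAMP response element). The regions were chr4:74308370-74308469 (plus strand) for EPGN, chr4:74365045-74365144 (plus strand) for EREG, chr4:74445036-74445135 (plus strand) for AREG, chr4:74794524-74794623 (minus strand) for BTC and chr5:140346604-140346703 (minus strand) for HBEGF.
EPGN: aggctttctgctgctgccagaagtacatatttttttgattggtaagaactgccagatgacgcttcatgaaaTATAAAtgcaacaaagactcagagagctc
EREG: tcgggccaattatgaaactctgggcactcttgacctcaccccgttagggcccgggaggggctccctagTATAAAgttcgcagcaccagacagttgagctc
AREG: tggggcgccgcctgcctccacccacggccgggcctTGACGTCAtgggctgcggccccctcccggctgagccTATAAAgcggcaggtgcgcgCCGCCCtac
BTC: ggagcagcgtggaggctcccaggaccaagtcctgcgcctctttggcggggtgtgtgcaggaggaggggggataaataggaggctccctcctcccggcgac
HBEGF: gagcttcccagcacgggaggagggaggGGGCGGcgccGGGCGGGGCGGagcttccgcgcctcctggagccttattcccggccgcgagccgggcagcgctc

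TATAAA began 29 bases before the start of EPGN, 32 bases before that of EREG and 29 bases before that of AREG. Among all 35116 promoters of the table, each read over 250 bases before to 50 bases after the start, 11.5% held TATAAA on either strand. The BTC, HBEGF, ERBB2 and both TGFA windows held none, and EGFR held it only in the later of its 2 listed promoters. GGGCGG was found in 45.0% of all promoters, 5 times in HBEGF (partly overlapping each other), 4 times in the first TGFA promoter, 3 times in the first EGFR promoter, and once each in AREG and, after the start, BTC. TGACGTCA was found in 1.85% of all promoters and, among the 8 members with a promoter here, only in AREG, 65 bases before the start. The AP-1 type sequence TGANTCA (7.71% of all promoters) was found 2 times in the later EGFR promoter and once in ERBB2. The ETS core CCGGAA (17.2% of all promoters) was found 2 times in ERBB2 and once each in AREG and the later TGFA promoter. The GC content of the window was 75.3% for the first TGFA and first EGFR promoters and 75.0% for HBEGF, against 37.7% for EPGN and a median of 58.7% over all promoters. ERBB3 was not matched in the table, and promoters on chromosome 8, where NRG1 lies, were left out for the members. A match describes letters in a window and is not a measured binding site.

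The libraries held between 52625492 and 87454509 reads assigned to genes, and 1 read was worth between 0.818 and 1.25 normalized counts. NEK2 itself was at 3702, 3323 and 3290 normalized counts in si-CTRL libraries 1 to 3 and at 284, 362 and 388 in si-NEK2 libraries 1 to 3 (log2 fold change −3.32, SE 0.12, limma adjusted p = 1.86e-06). Of the 3 si-CTRL libraries, replicate 1 had the lowest depth, and its Spearman correlation across genes with the other si-CTRL libraries (0.991 and 0.992) was below theirs with each other (0.996). The mesenchymal markers VIM, CD44, CAV1 and AXL were abundant in every library, whereas of the luminal markers ESR1 averaged 6.95 normalized counts, CDH1 2.70 and EPCAM 4.31, and PGR had at most 2 reads in a library. FOXA1 and GATA3, also fixed as luminal markers, were present at 1339 and 374 normalized counts on average. Of the 9 markers tested, 3 were regulated: FOXA1 rose from 826 ± 34.7 to 1851 ± 143 normalized counts (log2 fold change 1.16, limma adjusted p = 2.69e-05), CAV1 rose by 0.69 and CD44 fell by 0.76 on the log2 scale, and their part in the results was not tested. The leukocyte marker PTPRC (10.1) and the endothelial marker PECAM1 (11.5) were near the minimum, and COL1A1, the fibroblast marker, averaged 150878.

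In the comparison of si-NEK2 with si-CTRL cells, a gene was counted as regulated when its limma p did not exceed 0.05 and its fold reached 1.5, and it was said to rise or fall when its p adjusted by Benjamini-Hochberg over all 18717 genes did not exceed 0.05. By the regulated rule HBEGF and AREG were lower and no member was higher. This was 2 of 7 tested members, against 22.5% of all genes tested in either direction, 8.23% higher and 14.3% lower. By the adjusted p alone EGFR, HBEGF, AREG and TGFA fell, ERBB2 and NRG1 rose, and ERBB3 did not pass. That count of 6 of 7 members stood against 43.1% of all genes in either direction, 21.8% higher and 21.3% lower. The 3 libraries of one group did not overlap those of the other for all 7 tested members, as for 55.0% of all genes. The median log2 fold change was −0.52 over the tested members and 0.01 over all genes. Log2 fold changes are of log2(normalized counts + 1), si-NEK2 minus si-CTRL, which understates the change of low genes.

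**Figure D1:**
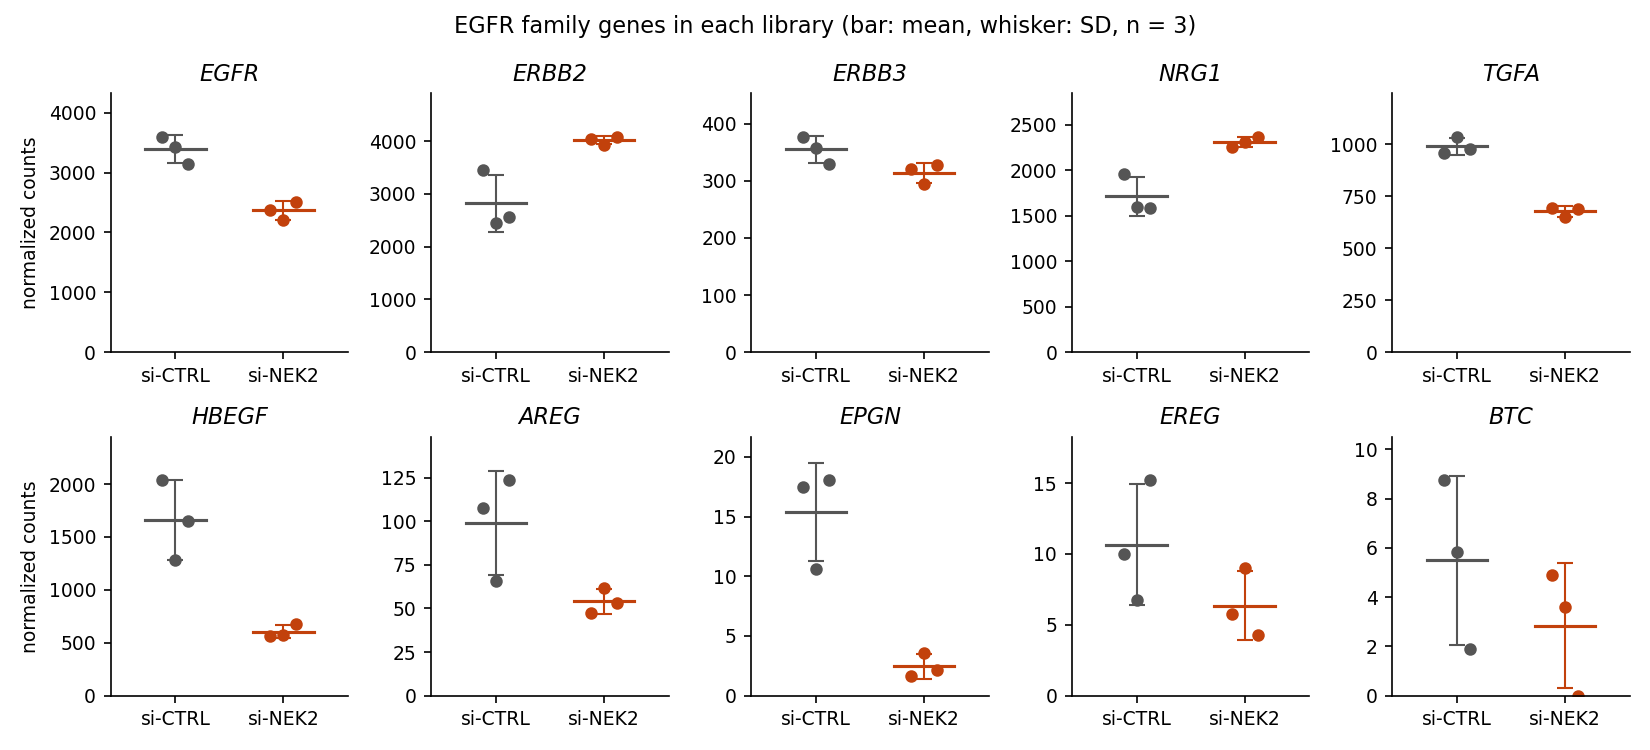
Normalized counts (y axis, linear, from 0) of the 10 members in each si-CTRL (grey) and si-NEK2 (orange) library, with the mean as a bar and the SD as a whisker (n = 3 per group). HBEGF lies between 1286 and 2037 in si-CTRL and between 561 and 675 in si-NEK2 cells, ERBB2 and NRG1 are higher in all si-NEK2 libraries, and EREG and BTC overlap between the groups.

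Among the receptors, EGFR (GSHG0027358, chr7:55041918-55324297, hg19), the receptor of most of the ligands described here, was at 3602, 3428 and 3138 normalized counts in si-CTRL libraries 1 to 3 and at 2381, 2208 and 2515 in si-NEK2 libraries 1 to 3. Every si-NEK2 library was below every si-CTRL library. The mean fell from 3389 ± 234 to 2368 ± 154 (SD, n = 3), 69.9% of control (log2 fold change −0.52, SE 0.08, limma adjusted p = 0.00113). The fold of 1.43 was under the threshold of 1.5, so EGFR was not counted as regulated. In bulk RNA of this kind, fewer cells with a transcript and less transcript per cell cannot be told apart.

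The EGFR row may not hold all reads of the EGFR transcript. Inside its span lie 13 other rows, 4 of them with a mean of at least 10, and 2 of those carry many reads and have no gene name. They were chosen after their values were seen. The longer (GSHG0142690, chr7:55277113-55279319, 2207 bases) had 7282, 8225 and 7796 normalized counts in si-CTRL and 5566, 5735 and 6140 in si-NEK2 libraries, more than the EGFR row in each library. Its mean fell from 7768 ± 472 to 5814 ± 295 (log2 fold change −0.42, SE 0.07, limma adjusted p = 0.00179). The shorter (GSHG0142689, chr7:55275809-55276165, 357 bases) fell from 1243 ± 99.6 to 847 ± 84.1 (log2 fold change −0.55, SE 0.10, limma adjusted p = 0.00242). The positions of EGFR exons were not compared with these rows, so whether these reads come from EGFR transcripts was not tested. All 3 rows were lower in every si-NEK2 library than in any si-CTRL library.

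ERBB2 (GSHG0012462, chr17:37844167-37884915, hg19), the HER2 receptor and preferred partner of the other receptors, was at 3447, 2455 and 2563 normalized counts in si-CTRL libraries 1 to 3 and at 4044, 3929 and 4085 in si-NEK2 libraries 1 to 3. All si-NEK2 libraries were above all si-CTRL libraries, and si-CTRL replicate 1 stood apart from the other controls toward the si-NEK2 level. The mean rose from 2822 ± 544 to 4020 ± 80.8, 142% of control (log2 fold change 0.53, SE 0.12, limma adjusted p = 0.00744). Without si-CTRL replicate 1 the log2 fold change was 0.68 (limma adjusted p = 8.11e-06) and ERBB2 passed the fold threshold. The ERBB2 row also carries the microRNA MIR4728 in its name, and its ends overlap the rows of PGAP3 (log2 fold change 0.56, limma adjusted p = 0.0336) and MIEN1 (log2 fold change −0.27, limma adjusted p = 0.0273), so reads at the ends could be assigned to either gene.

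ERBB3 (GSHG0006740, chr12:56473809-56497291, hg19), the neuregulin receptor with a weak kinase, was at 377, 358 and 329 normalized counts in si-CTRL libraries 1 to 3 and at 320, 295 and 328 in si-NEK2 libraries 1 to 3. The highest si-NEK2 library and the lowest si-CTRL library nearly touched. The means were 355 ± 24.4 and 314 ± 17.2 (log2 fold change −0.18, SE 0.11, limma adjusted p = 0.214). Over 17 alternative fits the log2 fold change ran from −0.30 with equal totals (limma adjusted p = 0.0477) to −0.01 with quantile normalization (limma adjusted p = 0.962). The ERBB3 row lies inside the span of the PMEL row, which averaged 94.0 normalized counts.

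**Figure D2:**
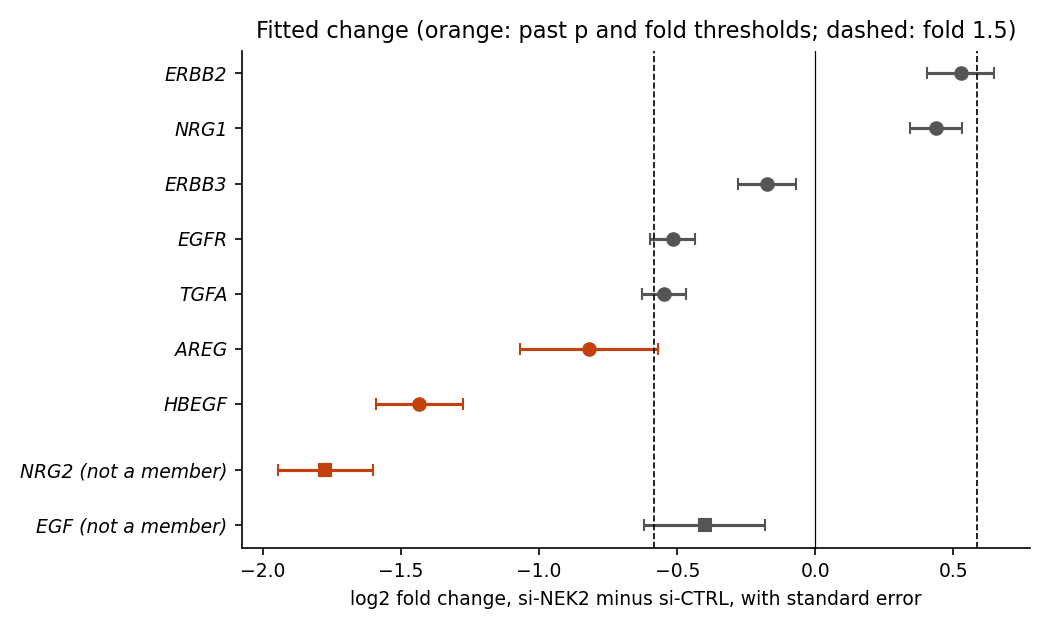
Log2 fold change (x axis, si-NEK2 minus si-CTRL) with its standard error for the 7 tested members (circles) and for NRG2 and EGF (squares), 2 family genes outside the 10 members. Orange marks genes past both thresholds and dashed lines the fold of 1.5. HBEGF at −1.43, AREG at −0.82 and NRG2 at −1.77 lie beyond the line, whereas EGFR at −0.52, TGFA at −0.55, ERBB2 at 0.53 and NRG1 at 0.44 lie inside it.

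Among the ligands, HBEGF (GSHG0025117, chr5:139712429-139728927, hg19), a heparin-binding ligand of EGFR and ERBB4 whose precursor is also the diphtheria toxin receptor, had the largest fitted change of the 7 tested members. It was at 2037, 1286 and 1651 normalized counts in si-CTRL libraries 1 to 3 and at 561, 577 and 675 in si-NEK2 libraries 1 to 3. The groups were far apart, although the si-CTRL libraries themselves were spread (coefficient of variation 22.6%). The mean fell from 1658 ± 376 to 604 ± 62.0, 36.5% of control (log2 fold change −1.43, SE 0.16, limma adjusted p = 0.000189). Leaving out any 1 library gave values from −1.60, without si-CTRL replicate 2, the lowest control, to −1.27, without si-CTRL replicate 1, the highest. No other row overlaps HBEGF.

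AREG (GSHG0022662, chr4:75310815-75320727, hg19) encodes amphiregulin, an EGFR ligand of the mammary epithelium. It was at 107, 65.9 and 124 normalized counts in si-CTRL libraries 1 to 3 and at 47.5, 61.5 and 53.3 in si-NEK2 libraries 1 to 3, from 86, 68 and 130 reads against 58, 68 and 50. The lowest si-CTRL library, replicate 2, was close to the highest si-NEK2 library, and it held as many reads as that library did. The mean fell from 99.0 ± 29.8 to 54.1 ± 7.02, 54.6% of control (log2 fold change −0.82, SE 0.25, limma adjusted p = 0.0267). The limma adjusted p missed the threshold when either replicate 1 (0.0504) or replicate 3 (0.0941) of si-CTRL was left out, and likewise for replicate 1 (0.0903) or replicate 3 (0.0621) of si-NEK2, with log2 fold changes from −1.08 to −0.64 over all 6 omissions.

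TGFA (GSHG0017713, chr2:70674414-70781147, hg19) encodes transforming growth factor alpha, an EGFR ligand made by many carcinomas. It was at 957, 1036 and 979 normalized counts in si-CTRL libraries 1 to 3 and at 695, 648 and 690 in si-NEK2 libraries 1 to 3. The groups were well separated, and the coefficient of variation of 4.12% in si-CTRL cells was the smallest of any tested member there. The mean fell from 991 ± 40.8 to 678 ± 25.8, 68.4% of control (log2 fold change −0.55, SE 0.08, limma adjusted p = 0.000824), a fold of 1.46 that was under the threshold of 1.5.

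NRG1 (GSHG0028931, on chromosome 8), the ligand of ERBB3 and ERBB4, was at 1957, 1597 and 1583 normalized counts in si-CTRL libraries 1 to 3 and at 2251, 2305 and 2368 in si-NEK2 libraries 1 to 3. It was the single tested ligand that was higher in all si-NEK2 libraries. The mean rose from 1712 ± 212 to 2308 ± 58.2, 135% of control (log2 fold change 0.44, SE 0.09, limma adjusted p = 0.00553), a fold of 1.35. As for ERBB2, si-CTRL replicate 1 was the highest control, and without it the log2 fold change was 0.54. Because this library was also the shallowest and the least like the others, its values are given with and without it for both genes, and the part of depth in the result was not tested.

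The remaining 3 ligands were near the limit of detection, where 3 reads, taken as the floor per library, were worth between 2.46 and 3.75 normalized counts. EPGN (GSHG0022660, chr4:75174187-75182520, hg19) encodes epigen, an EGFR ligand, and had 14, 11 and 19 reads in si-CTRL libraries 1 to 3 against 2, 4 and 2 in si-NEK2 libraries 1 to 3. These were 17.5, 10.7 and 18.1 normalized counts against 1.64, 3.61 and 2.13, so that no si-NEK2 library reached any si-CTRL library and 2 of them lay under the floor. The means were 15.4 ± 4.12 and 2.46 ± 1.03, and the two-sided exact permutation test gave p = 0.1, the smallest p that 3 libraries against 3 allow. EPGN missed the minimum mean of 10 with 8.93. Its span overlaps 1 other row, with a mean of 5.47 normalized counts, and the assignment of reads between them was not tested. In the fit without a minimum its log2 fold change was −2.25 (limma adjusted p = 0.0041). The si-CTRL libraries alone carried its mean toward the minimum.

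EREG (GSHG0022661, chr4:75230860-75254477, hg19) encodes epiregulin, a ligand of EGFR and ERBB4, and was at 10.0, 6.78 and 15.2 normalized counts in si-CTRL and at 5.73, 9.04 and 4.27 in si-NEK2 libraries. The groups overlapped (31 against 21 reads in all, two-sided exact permutation p = 0.2). BTC (GSHG0023324, chr4:75669972-75719896, hg19) encodes betacellulin, a ligand of the same receptors, and was at 8.75, 5.81 and 1.90 normalized counts in si-CTRL and at 4.91, 3.61 and 0 in si-NEK2 libraries. These groups overlapped as well (15 against 10 reads, two-sided exact permutation p = 0.4). Neither passed in the fit without a minimum (log2 fold change −0.65 and limma adjusted p = 0.377 for EREG, −0.94 and 0.456 for BTC), and the exact test could not go below 0.1. Along the chromosome 4 row of genes, the si-NEK2 mean was therefore 16.0% of control for EPGN, 59.5% for EREG, 54.6% for AREG and 51.8% for BTC, with overlap between groups for EREG and BTC only.

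Among the 5 family genes outside the 10 members, NRG2, a neuregulin, was at 212, 170 and 220 normalized counts in si-CTRL and 67.1, 56.9 and 50.1 in si-NEK2 libraries. It fell by 1.77 on the log2 scale (SE 0.17, limma adjusted p = 9.88e-05), opposite in direction to NRG1. EGF was at 41.2, 47.5 and 62.7 normalized counts in si-CTRL and 36.8, 37.1 and 38.4 in si-NEK2 libraries (log2 fold change −0.40, limma adjusted p = 0.175). The receptor ERBB4 had no read in any si-CTRL library and 2, 0 and 2 reads in si-NEK2 libraries 1 to 3, all at or under the floor of 3 reads. NRG3 had at most 4 and NRG4 at most 8 reads in any library.

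To compare levels between genes, normalized counts were divided by the length of the longest annotated protein-coding transcript. For EGFR only its own row was counted in this order, without the 2 unnamed rows inside its span. In si-CTRL cells HBEGF was highest at 695 ± 157 normalized counts per kb, and overlapped with ERBB2 at 589 ± 114. EGFR (345 ± 23.9) and NRG1 (289 ± 35.8) overlapped each other, followed by TGFA (230 ± 9.46), AREG (79.8 ± 24.0) and ERBB3 (60.0 ± 4.13), of which AREG and ERBB3 overlapped. In si-NEK2 cells the order was led by ERBB2 at 839 ± 16.9 per kb and NRG1 at 389 ± 9.81, and HBEGF (253 ± 26.0) had come within the range of EGFR (241 ± 15.7). With the longest coding sequence as length, TGFA led in si-NEK2 cells (1361 ± 51.9 per kb), ahead of NRG1 (1079 ± 27.2), ERBB2 (1068 ± 21.4) and HBEGF (969 ± 99.3), and in si-CTRL cells TGFA came next after HBEGF, and ERBB2 (749 ± 145) came after EGFR and NRG1. With either length EPGN, EREG and BTC came last in both groups, with transcript length at 12.9, 2.31 and 1.95 per kb in si-CTRL and 2.06, 1.37 and 1.01 in si-NEK2 cells.

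As a share of the summed level per kb of the 7 ligands, HBEGF went from 52.6% ± 4.05 in si-CTRL to 29.8% ± 1.77 in si-NEK2 cells, while NRG1 went from 22.1% ± 1.88 to 45.9% ± 0.848. The libraries of the groups did not overlap for either share. TGFA held 17.9% ± 3.47 and 18.6% ± 0.982, and AREG 6.05% ± 1.46 and 5.15% ± 0.675. Of the summed level of the 3 receptors, EGFR held 35.0% ± 2.98 in si-CTRL and 21.3% ± 0.731 in si-NEK2 cells, and ERBB2 59.0% ± 3.50 and 74.1% ± 0.836. Shares are a description with no test, and a share moves when any other member moves. They also depend on the transcript assumed, since the lengths of the longest coding sequence put EGFR above ERBB2 in si-CTRL cells (52.9% against 42.1%) and TGFA above NRG1 in si-NEK2 cells (38.9% against 30.9%). The EGFR level and share also rest on its row alone. With the 2 unnamed rows inside its span added, an alternative chosen after seeing the data, EGFR was at 1263 ± 49.6 per kb of transcript in si-CTRL and 919 ± 50.05 in si-NEK2 cells, above ERBB2 in both, and held 66.2% ± 4.37 and 50.7% ± 1.05 of the receptor sum. With either length, the HBEGF and EGFR shares were lower and the NRG1 and ERBB2 shares higher in si-NEK2 cells.

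**Figure D3:**
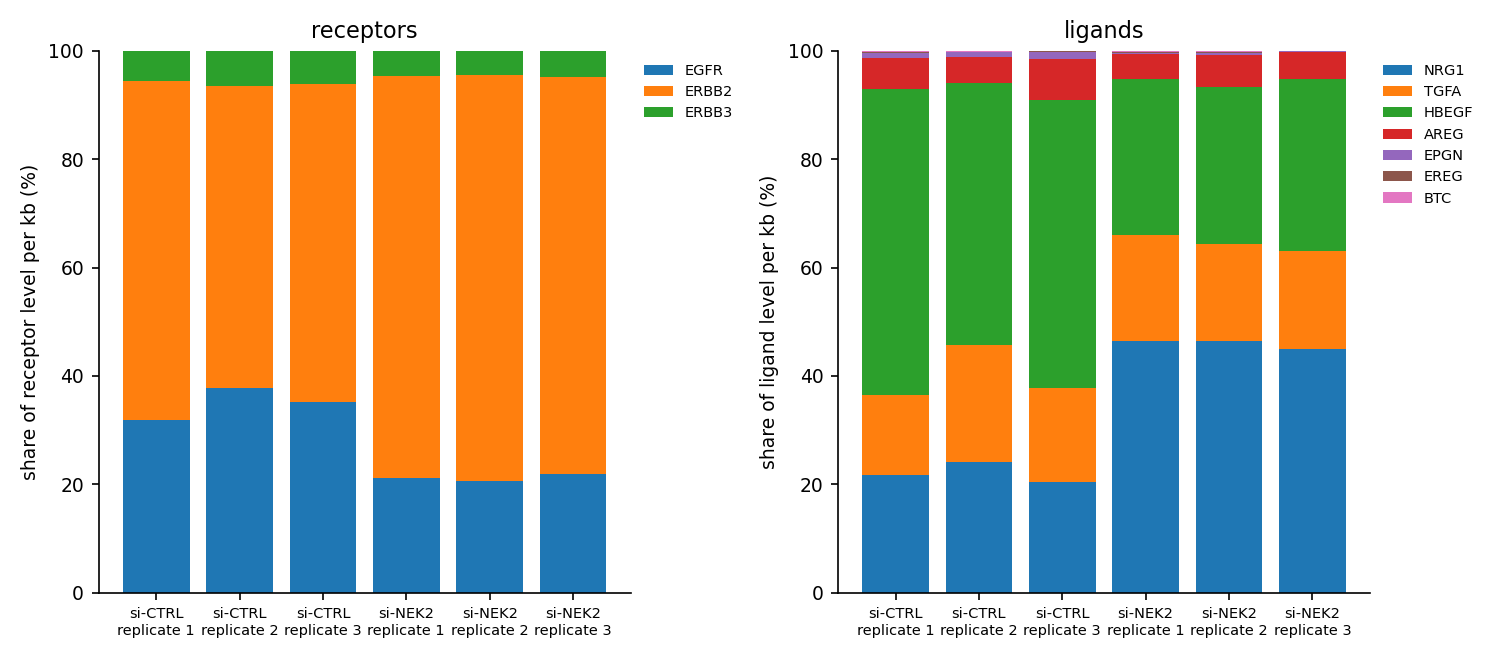
Share (y axis, in percent) of each receptor in the summed receptor level (left) and of each ligand in the summed ligand level (right), per kb of the longest transcript, in each of the 6 libraries. The EGFR part of the receptor bars is near 35.0% in si-CTRL and 21.3% in si-NEK2 libraries, and NRG1 in place of HBEGF is the largest part of the ligand bars in all si-NEK2 libraries. The EGFR part counts its own row alone. With the 2 unnamed rows inside its span added, EGFR held 66.2% in si-CTRL and 50.7% in si-NEK2 cells.

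The genes around the receptors were described with 4 lists. Of 11 genes of ligand shedding, all tested, 2 were regulated higher and 1 lower, against 8.23% and 14.3% of all genes, and 4 rose and 3 fell by adjusted p, against 21.8% and 21.3%. The median log2 fold change was 0.14, and a count of 3 regulated among 11 is near the 22.5% over all genes. ADAM10, a main sheddase of EGF and BTC, rose from 6315 ± 149 to 9588 ± 361 normalized counts (log2 fold change 0.60, SE 0.06, limma adjusted p = 0.000124). ADAM17, the main sheddase of TGFA, AREG and HBEGF, rose from 1784, 1551 and 1512 to 2104, 2272 and 2363 (log2 fold change 0.48, SE 0.09, limma adjusted p = 0.00254), under the fold threshold. TIMP3, which inhibits these proteases, rose from 1256 ± 87.4 to 3122 ± 76.0 (log2 fold change 1.31, SE 0.08, limma adjusted p = 8.41e-06). ADAM8, another surface protease, fell from 227 ± 39.3 to 139 ± 10.8 (log2 fold change −0.69, SE 0.15, limma adjusted p = 0.00633).

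Of 28 adaptors and proximal signalling genes, 27 were tested, 1 was regulated higher and 3 lower, and 8 rose, 6 fell and 13 did not pass by adjusted p (median log2 fold change 0.10). The 4 regulated genes were a smaller share than the 22.5% over all genes, and the 14 that passed by adjusted p stood against 43.1%. GAB2, a docking protein that couples receptors to PI3K and SHP2, fell from 781 ± 141 to 298 ± 24.9 normalized counts (log2 fold change −1.38, SE 0.14, limma adjusted p = 0.000111). MAP2K1, the kinase MEK1, fell from 3759 ± 206 to 1927 ± 63.8 (log2 fold change −0.96). The row of PIK3R2, a regulatory subunit of PI3K, rose from 850 ± 94.8 to 1422 ± 5.12 (log2 fold change 0.75), but this row is shared with IFI30 and its reads cannot be assigned to either gene.

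Of 20 receptor inhibitors, ubiquitin ligases and endocytosis genes, 19 were tested, 4 were regulated higher and 1 lower, and 8 rose, 2 fell and 9 did not pass by adjusted p (median log2 fold change 0.19). Over all genes 22.5% were regulated, near the 5 of 19 here, and 21.8% rose and 21.3% fell by adjusted p. RNF41, the ubiquitin ligase of ERBB3, rose from 753 ± 39.1 to 1624 ± 73.0 normalized counts (log2 fold change 1.11, SE 0.08, limma adjusted p = 2.49e-05). CBLB, a ubiquitin ligase of active EGFR, rose from 536 ± 82.7 to 905 ± 40.0 (log2 fold change 0.76), and SOCS5, which promotes EGFR turnover, from 7560 ± 977 to 12286 ± 428 (log2 fold change 0.71). ERRFI1, the feedback inhibitor MIG6 that binds the EGFR kinase, rose from 4779, 5221 and 5277 to 7327, 7593 and 7344 (log2 fold change 0.54, SE 0.07, limma adjusted p = 0.000282), under the fold threshold. LRIG1, a transmembrane protein that lowers ERBB receptor levels, went the other way, from 2071 ± 158 to 674 ± 35.1 (log2 fold change −1.62, SE 0.09, limma adjusted p = 6.51e-06), while its relative LRIG3 rose from 817 ± 38.7 to 1479 ± 93.0 (log2 fold change 0.85). CBLC had no read in any library.

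Of 15 ERK output genes, transcripts that respond to ERK activity, all were tested, 9 were regulated lower and none higher, against 14.3% lower and 8.23% higher over all genes. By adjusted p 11 fell, against 21.3% of all genes, and 4 did not pass. The median log2 fold change was −0.72, against 0.01 over all genes. PHLDA1, an early-response gene, was lowest in fold, from 48240, 56672 and 65812 normalized counts in si-CTRL to 19800, 21258 and 19109 in si-NEK2 libraries (log2 fold change −1.49, SE 0.11, limma adjusted p = 2.46e-05). ETV4, an ETS factor, fell from 1664 ± 334 to 657 ± 34.5 (log2 fold change −1.32), and SPRY4, a Sprouty inhibitor of RAS-ERK signalling, from 3193 ± 498 to 1387 ± 35.7 (log2 fold change −1.19). The ERK phosphatases DUSP6 (log2 fold change −0.74) and DUSP5 (−0.61) and the early-response gene IER3 (−0.72) fell less. Replicate 1 of si-CTRL was the highest control for ETV4, SPRY4 and DUSP6 and the lowest for PHLDA1, DUSP5 and IER3. Like the members and the other lists, this list was chosen with earlier results of these data known, so its counts beside the shares over all genes are a description. ERK activity itself was not measured.

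**Figure D4:**
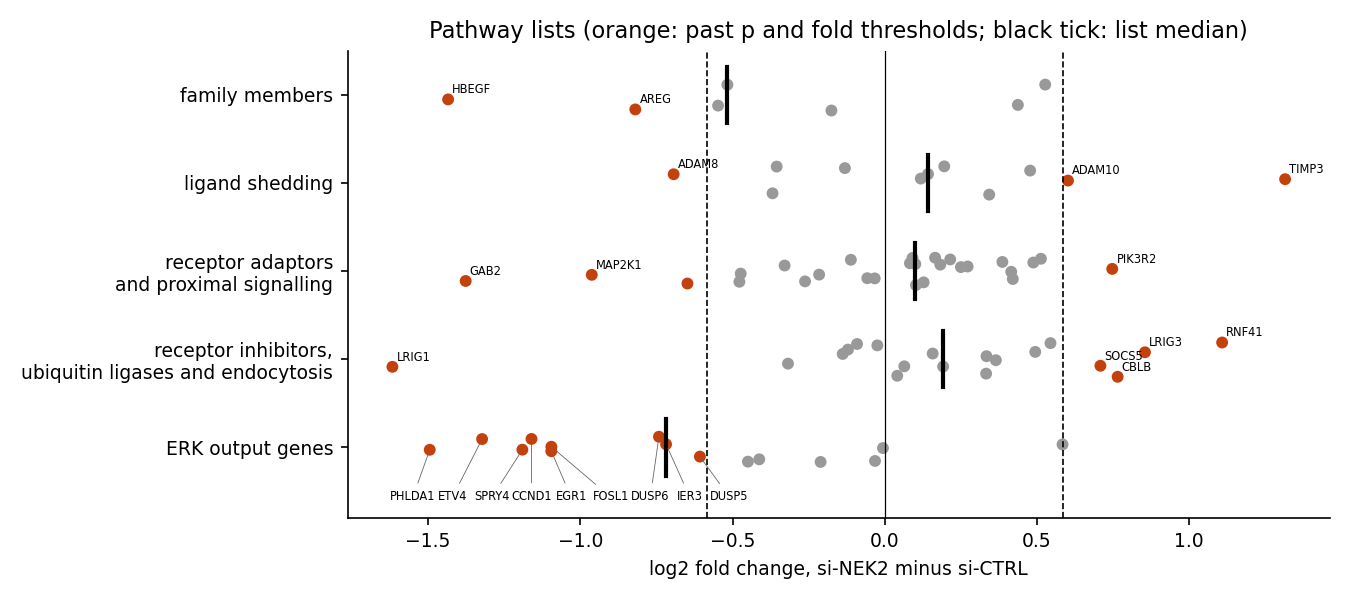
Log2 fold change (x axis, si-NEK2 minus si-CTRL) of each tested gene of the family and of the 4 lists, 1 row per list. Points are offset vertically for legibility, orange points, most of them labelled, are past both thresholds, black ticks are list medians and dashed lines a fold of 1.5. The ERK output genes (median −0.72) and the members (median −0.52) lie mostly to the left, the other 3 lists (medians 0.10 to 0.19) on both sides of 0.

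The genes whose profiles over the 6 libraries were nearest to the 2 chosen members were found among 12916 named genes with a mean of at least 50, as the smallest root mean square difference of centred log2 values. For EGFR these were the pseudogene LRRC37A4P (0.0267), CNTNAP1 (0.036) and PLEKHG3 (0.0366). For HBEGF they were HAS2, a hyaluronan synthase (0.0602), PLAU, the urokinase-type plasminogen activator (0.0765), and COL16A1, a collagen chain (0.0985), with log2 fold changes of −1.36, −1.32 and −1.35. The likeness is a description over 6 libraries of 2 groups.

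The direction of the 6 members that passed by adjusted p was unchanged over 17 alternative fits each, including 1 that scaled each library to an equal total, which moved the median of all genes from 0.01 to −0.11. Fits that changed only the minimum, the variance trend or a block for the replicate number kept the main log2 fold change, so their direction was fixed in advance. HBEGF ranged from −1.60 to −1.27, EGFR from −0.65 to −0.47, TGFA from −0.68 to −0.50 and AREG from −1.08 to −0.62, whereas ERBB2 ranged from 0.40 to 0.68 and NRG1 from 0.31 to 0.54. The highest adjusted p over these fits (limma, edgeR and DESeq2) was 0.00313 for HBEGF, 0.00907 for EGFR, 0.00765 for TGFA, 0.0319 for ERBB2, 0.0267 for NRG1 and 0.0941 for AREG. HBEGF was regulated in every fit, and EGFR, ERBB2 and TGFA lay close to the fold threshold of 1.5 on a log2 scale, so that a change of scaling or of 1 library moved them across it.

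**Figure D5:**
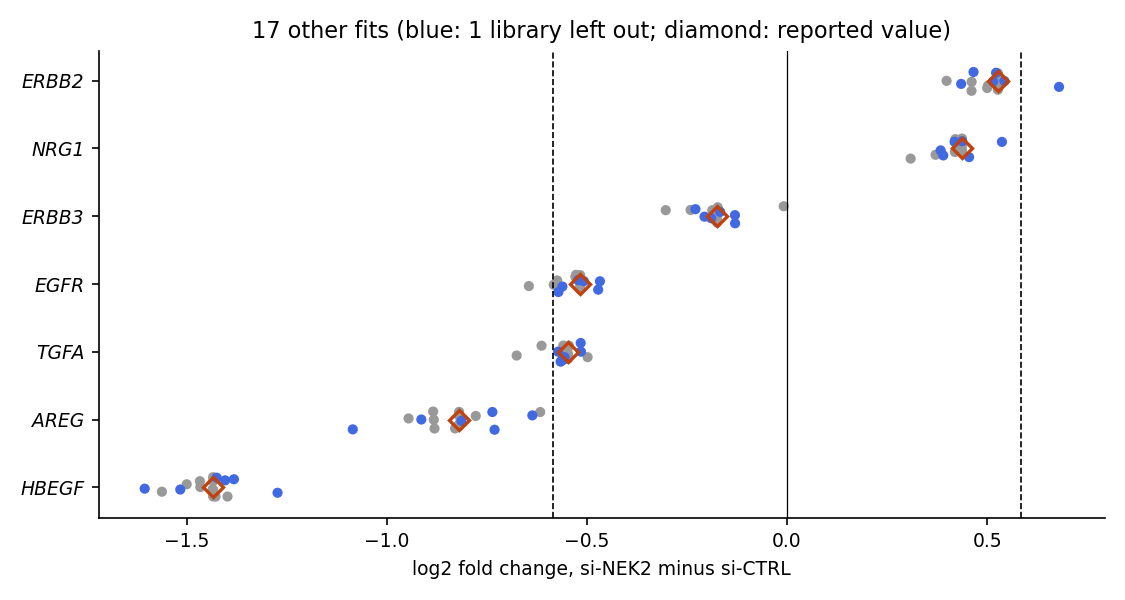
Log2 fold change (x axis, si-NEK2 minus si-CTRL) of the 7 tested members in 17 alternative fits. Blue points leave out 1 library, grey points change the scaling, minimum, pseudocount or model, the diamond is the reported value and dashed lines a fold of 1.5. HBEGF stays beyond the line at −1.27 or lower, and ERBB3 comes closest to 0 at −0.01.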

How the data were processed

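PolyA-enriched RNA of si-CTRL and si-NEK2 MDA-MB-231 cells (n = 3 libraries each) was measured with a stranded Illumina mRNA kit. Reads were aligned to hg19 with STAR 2.4.0 per the submitters' processing notes, and genes were taken from FAST DB annotations. The counting tool and its strand setting are not given in the sources used here. The authors deposited a normalized gene signal, reads divided by a DESeq2 size factor, here called normalized counts. Whole reads were recovered for 100% of values within 0.01 read, and the count tests were run on them as alternatives (edgeR 4.0.16 called 4205 genes, DESeq2 1.42.0 4039, with no p for 5 genes).

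Genes with a mean of at least 10 were tested with limma 3.58.1 (R 4.3.3, intensity trend) on log2(value + 1), without covariates, with Benjamini-Hochberg adjustment over all 18717 genes. Exact permutation tests of untested members used scipy 1.17.1. Scripts were tested on simulated data. The members and lists were chosen with earlier results of these data known. Named genes were all members, NEK2, 5 family genes outside them, from each list the 3 lowest and 3 highest log2 fold changes among regulated genes, ERRFI1, ADAM17, and the 3 nearest profiles of EGFR and of the most changed tested ligand. The result of 1 such gene is not reported here. Alternatives changed pseudocount, minimum, scaling, model, thresholds, length and libraries. Depth limits low genes, and floors cover counting error only. Promoter sequences are from RefSeq, transcript lengths from GENCODE v29.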

Additional observations from a re-analysis of the deposited data

How the results depend on the processing

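Of the 276 comparisons of a result with an alternative, 254 kept direction and side of the regulated thresholds, or for counts stayed within 1.5 times, and none reversed. Part of this was fixed in advance. Where only the minimum, the variance trend, the replicate block or the thresholds changed, tested members kept the log2 fold change of the main fit. In these settings no direction could reverse, and no member under the fold of 1.5 could become regulated. Among them ERBB3 moved to −0.01 with quantile normalization, and AREG missed an adjusted p of 0.05 with it (0.0815) and in 4 of the 6 fits that left out a library. With equal total scaling EGFR (−0.65) and TGFA (−0.68) passed the fold threshold, so that 4 members were regulated in place of 2, and with upper quartile scaling TGFA passed it (−0.61). Equal totals also changed the split of regulated genes from 1541 higher and 2672 lower to 942 and 3474. At a fold of at least 2, AREG (−0.82) was lost, leaving 1 member, 1637 genes in all, and 1 gene of ligand shedding, 1 adaptor gene and 2 receptor inhibitor genes. Quantile normalization also left 1 gene of ligand shedding. With coding lengths in place of transcript lengths, the share of the ligand sum in si-CTRL and si-NEK2 cells was 14.2% and 30.9% for NRG1, 35.7% and 38.9% for TGFA and 46.8% and 27.7% for HBEGF, and EGFR held 52.9% and 36.3% of the receptor sum. With the unnamed rows added, chosen after seeing the data, EGFR held 66.2% and 50.7%. Leaving out 1 library at a time gave 0.44 to 0.68 for ERBB2, with the fold threshold passed only without si-CTRL replicate 1. The members counted as regulated then ranged from 2 to 3, with EPGN added without si-NEK2 replicate 1 or 3, where it passed the minimum mean through the si-CTRL libraries alone, so that this addition is no support, and ERBB2 without si-CTRL replicate 1. The causes were not tested.

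Libraries with the same replicate number showed no sign of pairing (correlations of same-numbered deviations −0.0910, 0.0469 and −0.147). Between libraries with different numbers the correlations ran from −0.119 to 0.18, so these values cannot tell whether the cultures were paired. With the replicate block 4084 genes and 2 members were regulated and AREG had a limma adjusted p of 0.0545.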
